A study of Mus musculus with 48 samples.

Results

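Galectins are small proteins that bind sugars carrying galactose, and 5 of them (Lgals1, Lgals3, Lgals4, Lgals8 and Lgals9), together with Lgals3bp, the secreted glycoprotein that galectin-3 binds, were followed across cultures of mouse lung cells exposed to e-cigarette vapour. These 6 genes were taken by their symbols from the 20738 genes that the array platform's annotation and gene identifiers name, with 1 probe per gene, the probe with the highest mean over all 48 arrays. Probes were selected on that mean level, a measured value, and the genes were chosen by name with results of these data already known, so the tests given here describe them and are no independent evidence. The arrays held RNA from 2 cultured cell types of C57Bl/6J mice, alveolar epithelial type II cells (AECII), which make surfactant and renew the alveolar lining, and pulmonary artery smooth muscle cells (PASMC), the contractile cells of the vessel wall. Each cell type was kept under 3 conditions, with 8 arrays per group: room air control (Ctrl), and 24 h in medium holding 15% of an extract of vapour from e-liquid without nicotine (0mg) or with 18 mg of nicotine per ml (18mg). AECII were grown with 10% fetal bovine serum and exposed after a day in culture, and PASMC with 15% serum at their first passage. The series describes cells isolated from 8 mice, and no label ties an array to a mouse, so arrays of different conditions may share an animal, and p-values over arrays measure the spread between these arrays.

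Galectins are made without a signal peptide and leave the cell by a route outside the classical secretory pathway. Outside the cell they cross-link branched N-glycans on receptors and matrix proteins, and inside it several of them gather on lysosomes whose membrane has broken, because glycans of the inner face are then exposed. Lgals3 (galectin-3) is abundant in lung epithelium and macrophages and is widely studied in lung and vascular fibrosis. Lgals1 (galectin-1) is abundant in mesenchymal and smooth muscle cells. Lgals8 and Lgals9 carry a pair of sugar-binding domains joined by a linker, as does Lgals4, which is best known from gut epithelium. Lgals9 and Lgals3bp are both known to respond to interferon.

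In the RefSeq annotation of mouse build GRCm38.p6, Lgals1 lies at chr15:78926725-78930465, Lgals3 at chr14:47373860-47386167, Lgals3bp at chr11:118392747-118401959, Lgals4 at chr7:28833122-28841710, Lgals8 at chr13:12439402-12464977 and Lgals9 at chr11:78962979-78984924. The exon or untranslated region that each probe matches is not given in the sources used here. Lgals3bp had 2 probes and Lgals4 had 3, and each of the other members had 1. The second Lgals3bp probe had r = 0.99 with the chosen one over the PASMC arrays and 0.62 over the AECII arrays. Lgals3bp and Lgals9 are shown by the 250 bases before their start sites because in PASMC both ran with interferon-stimulated genes, as described further on. Capitals mark the interferon-stimulated response element (a pair of GAAA blocks with 2 bases between them), which interferon-activated factors bind, searched on both strands, and both sequences are from RefSeq on GRCm38.p6, minus strand, chr11:118401960-118402209 for Lgals3bp and chr11:78984925-78985174 for Lgals9.
Lgals3bp: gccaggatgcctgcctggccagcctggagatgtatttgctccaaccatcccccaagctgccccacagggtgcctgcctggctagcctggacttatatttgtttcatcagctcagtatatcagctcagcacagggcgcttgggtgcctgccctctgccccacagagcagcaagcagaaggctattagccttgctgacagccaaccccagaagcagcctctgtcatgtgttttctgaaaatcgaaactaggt
Lgals9: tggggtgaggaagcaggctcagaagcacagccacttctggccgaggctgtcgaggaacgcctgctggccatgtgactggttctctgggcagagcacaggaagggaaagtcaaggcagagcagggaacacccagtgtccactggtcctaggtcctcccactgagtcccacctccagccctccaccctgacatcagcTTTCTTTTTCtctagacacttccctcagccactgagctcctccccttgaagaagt

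The Lgals9 sequence held 1 match on the reverse strand, read as TTTCTTTTTC and beginning at base -55 relative to the start site. A second match, TTTCTGTTTC, began at base 16. Of the 5 members with a RefSeq promoter window of 300 bases (250 before the start and 50 after), Lgals9 was the only one with this motif, which 3.44% of 32851 windows and 11 of 19 interferon-stimulated genes held. The other motifs searched on both strands were the STAT site TTCNNNGAA (in 8.3% of windows), the E-box CACGTG (7.15%), the AP-1 site TGANTCA (7.81%) and the Sp1 box GGGCGG (35.7%). Lgals3bp and Lgals8 held none of the 5 motifs, which says only that these letters were not in their windows. The Sp1 box was found 2 times in the Lgals3 window and 1 time in that of Lgals4. No motif match other than those named was found in the members' windows, and no overlap between motifs occurred there.

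All deposited values were log2 intensities with the same distribution on every array, from 1.52 to 15.89 with a median of 2.98, and 3.98 (the median plus 1) is used below as the limit under which a group mean is called near background. Pairwise correlations between arrays of the same group ranged from 0.973 to 0.986 for AECII, and for PASMC from 0.937 to 0.986. At Ctrl, all 12 general epithelial genes and 13 of 14 alveolar type II genes tested were higher in AECII. At Ctrl 11 of 11 smooth muscle genes tested were higher in PASMC. These lists separate the 2 cultures but do not single out 1 cell type in either. In AECII at Ctrl the alveolar type I list had a median of 9.38, beside 9.17 for the type II list. In PASMC at Ctrl the fibroblast list had a median of 10.47, beside 9.19 for smooth muscle. Markers of other cells were present too. The 6 mesothelial markers averaged 9.32 to 10.49 over the AECII arrays. Alveolar macrophage markers averaged 6.21 to 8.22 in AECII and 5.37 to 8.73 in PASMC. Of their 23 genes, 18 were above background in AECII and 19 or 20 in PASMC. Ptprc, the pan-leukocyte marker, was near background in every group mean. In AECII, markers of airway and gut-type secretory epithelium averaged 5.19 to 5.98, with 5 of 11 above background. The highest of them, Scgb1a1, had means of 15.73 to 15.76. Smooth muscle markers averaged 6.52 to 7.49 there and fibroblast markers 6.14 to 7.30. Their highest genes, Tagln and Col1a2, had means of 12.74 to 12.84 and 11.81 to 11.98. In PASMC, alveolar type II markers averaged 4.99 to 7.26, and Sftpc among them ran from 1.72 to 11.82. The secretory list reached 7.57 on a PASMC 0mg array. General epithelial markers averaged 3.37 to 4.10 on 15 PASMC arrays, where the type II list still reached 6.58. The general epithelial markers averaged 5.34 to 6.93 on the other 9, 3 of them in each condition. Of those 9, 1 array per condition stood further apart, with Lgals3bp between 8.50 and 8.93 and fibroblast markers between 8.77 and 8.90, against 9.91 to 11.06 on the other 21 arrays. Results in PASMC are therefore also given without these arrays, wherever they move.

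Lgals3 was the only member higher in AECII than in PASMC. In AECII its log2 intensity ran from 14.24 over a median of 14.36 to 14.50 at Ctrl, from 14.09 over 14.40 to 14.64 at 0mg and from 14.19 over 14.46 to 14.50 at 18mg. In PASMC the same probe ran from 12.50 over 12.78 to 13.23 at Ctrl, from 11.83 over 12.40 to 12.89 at 0mg and from 11.83 over 12.30 to 12.64 at 18mg. No AECII array overlapped a PASMC array of its condition. The log2 difference was 1.54 (SE 0.12, adjusted p = 2.3e-15, limma with Benjamini-Hochberg adjustment over 14775 genes), a 2.90-fold difference at Ctrl. It was 2.02 (SE 0.12) at 0mg and 2.17 (SE 0.12) at 18mg.

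The other galectins among the members and Lgals3bp had lower means in AECII than in PASMC, though Lgals4 did not pass at Ctrl. At Ctrl 5 of the 6 members differed between cell types, against 59.2% of all genes tested (27.9% higher and 31.3% lower in AECII), so the count is near what genes at large show. All 6 members differed at 0mg, against 58.7% of genes (27.9% higher, 30.9% lower), and at 18mg, against 58.3% (28% higher, 30.3% lower). Lgals1, a galectin of mesenchymal cells, had means of 13.85 ± 0.22 (SD, n = 8) in AECII and 15.24 ± 0.16 in PASMC at Ctrl, and the groups did not overlap. Its log2 difference was -1.39 (SE 0.095, limma adjusted p = 3.05e-17), and -1.41 and -1.36 at 0mg and 18mg. Lgals9, a galectin with a pair of binding domains, had a mean of 6.90 ± 0.30 in AECII and 7.96 ± 0.35 in PASMC at Ctrl. The Ctrl groups did not overlap, and the difference was -1.06 (SE 0.16, limma adjusted p = 1.15e-07). At 18mg the Lgals9 groups overlapped, and the difference was -0.92 (SE 0.16).

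Lgals3bp had a narrow range in AECII and a wide one in PASMC. At Ctrl its log2 intensity ran from 8.86 over a median of 9.29 to 9.61 in AECII and from 8.52 over 10.81 to 11.72 in PASMC. The ranges overlapped through 1 PASMC array, and the log2 difference was -1.29 (SE 0.36, limma adjusted p = 0.00223). Without the 3 PASMC arrays low in Lgals3bp it was -1.58, and without the 9 high in epithelial markers -1.90. Within-group SDs pooled over the 3 conditions were 0.21 in AECII and 1.0 in PASMC, a ratio of 4.8. For Lgals3 this ratio was 2.1, for Lgals9 1.5, for Lgals8 1.3, for Lgals4 0.98 and for Lgals1 0.64.

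Lgals8, whose product marks broken lysosomes for autophagy, differed little between the cell types. It had means of 7.63 ± 0.17 in AECII and 8.08 ± 0.19 in PASMC at Ctrl, with overlapping ranges, a log2 difference of -0.45 (SE 0.12, limma adjusted p = 0.00137) and smaller ones of -0.33 at 0mg and -0.32 at 18mg. At 18mg the Lgals8 call was lost (adjusted p = 0.0899) in a fit of only the arrays compared, and without any 1 of 5 arrays: PASMC 18mg replicates 1, 2, 4 and 6 and AECII 18mg replicate 7, with differences of -0.24 to -0.28. Lgals4 was near background in AECII, with means of 3.50 to 3.67, and had means of 4.15 ± 0.54, 4.64 ± 0.61 and 4.59 ± 0.42 in PASMC at Ctrl, 0mg and 18mg. Its log2 difference of -0.49 at Ctrl (SE 0.26) did not pass (limma adjusted p = 0.107), while those of -1.14 at 0mg and -1.04 at 18mg did. Averaging its 3 probes gave -0.96 at Ctrl (adjusted p = 0.0017), and leaving out the 3 PASMC arrays low in Lgals3bp gave -0.60 (adjusted p = 0.0418).

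**Figure D1:**
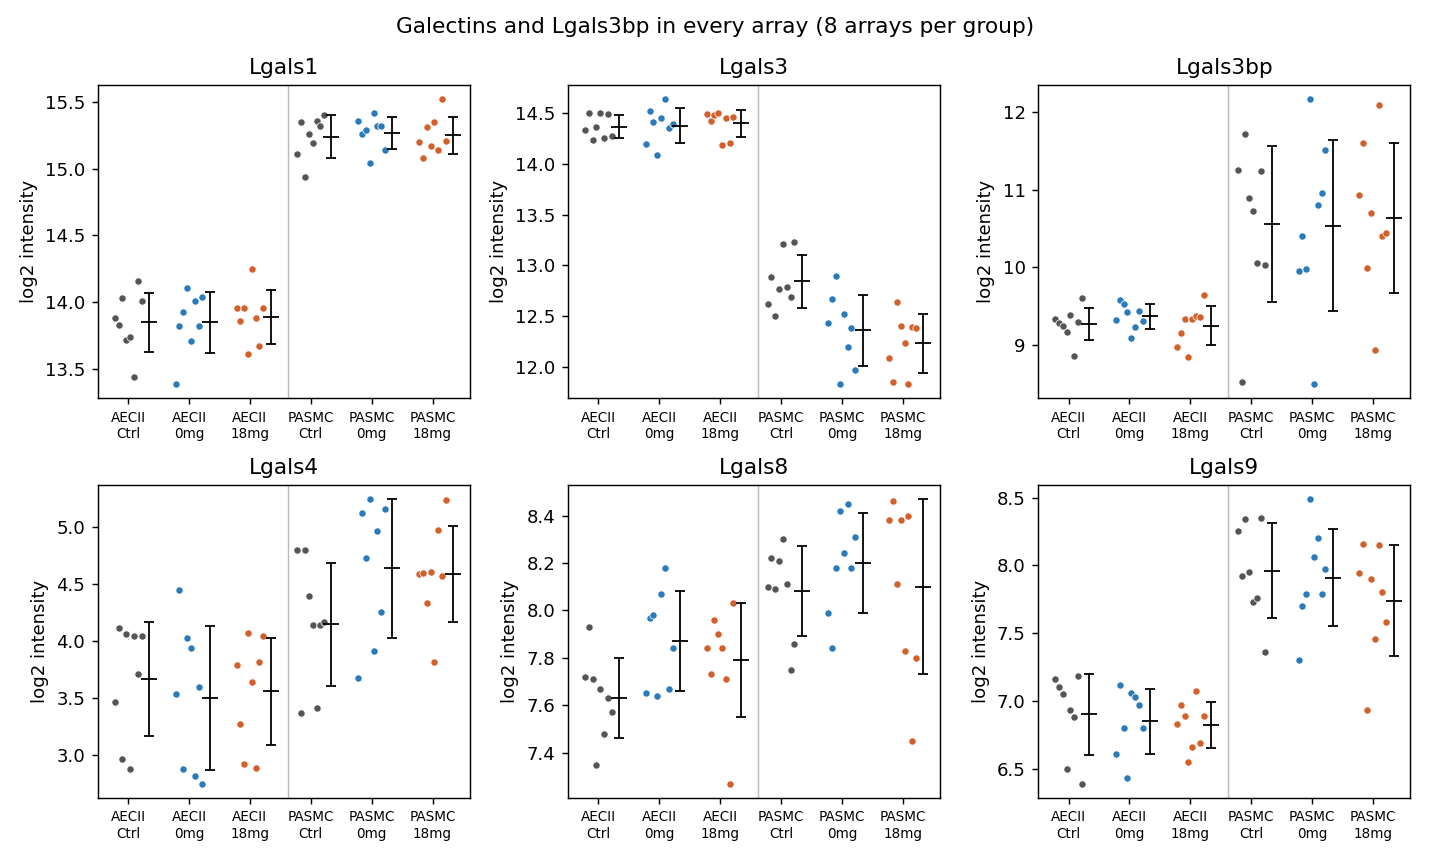
Log2 intensity (y axis) of each of the 6 genes in the 6 groups (x axis), 1 point per array and 8 arrays per group, with bars at the mean ± SD beside the points; each panel has its own y range. Lgals3 lies at 14.09 to 14.64 in AECII and 11.83 to 13.23 in PASMC, the other genes have higher means in PASMC, and Lgals3bp spreads from 8.50 to 12.17 over the PASMC arrays.

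In the order of the 6 groups by mean level, the step between cell types was larger than the SD of either neighbouring group for Lgals1, Lgals3, Lgals3bp and Lgals9, and not for Lgals4 and Lgals8. Within a cell type the only step larger than that SD was the one of Lgals3 from PASMC Ctrl to PASMC 0mg, 0.48 against an SD of 0.35. These are RNA levels of whole cultures, in which fewer cells of a type and less RNA per cell cannot be told apart.

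Other genes of the family were mostly near background. Lgals2, a galectin of gut epithelium, had means of 4.77 to 5.34 in AECII and was near background in PASMC at 2.46 to 2.96, a log2 difference of 2.32 at Ctrl (SE 0.35, limma adjusted p = 1.85e-07). Lgalsl, a galectin-related gene, had means of 8.01 ± 0.28 in AECII and 8.84 ± 0.44 in PASMC at Ctrl, a difference of -0.83 (SE 0.16, limma adjusted p = 2.14e-05). Lgals7, Lgals12 and Grifin were near background in every group.

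Neither vapour extract moved any of the 6 members past the test. In AECII, 0 of 6 members passed at 0mg or at 18mg against Ctrl, as did 0 of all 14477 genes (0%) by limma with Benjamini-Hochberg adjustment, with 480 and 341 genes at an unadjusted p under 0.05. In PASMC 0 of 6 passed at 0mg, as did 0 of 14545 genes (0%), with 402 at an unadjusted p under 0.05. At 18mg 0 of 6 passed and 4 of 14545 genes did (0.0275%), Uap1l1, Slc6a8, Kazn and Ctsk, all lower, and 589 had an unadjusted p under 0.05. Between 18mg and 0mg, 0 of 6 members and 0% of genes passed in either cell type, with 447 genes in AECII and 282 in PASMC at an unadjusted p under 0.05.

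Lgals3 in PASMC had the lowest unadjusted p among the 6 members in both comparisons with Ctrl. Its mean was 12.84 ± 0.26 (SD, n = 8) at Ctrl, 12.36 ± 0.35 at 0mg and 12.23 ± 0.29 at 18mg. All 8 arrays at 18mg and 7 of 8 at 0mg lay below the Ctrl mean, while the ranges of the groups overlapped. The log2 difference was -0.48 at 0mg (95% interval -0.79 to -0.16, unadjusted p = 0.00442, adjusted p = 1 by limma) and -0.61 at 18mg (95% interval -0.92 to -0.30, unadjusted p = 0.000487, adjusted p = 0.337), the latter ranked 21 of 14545 genes by p. Both comparisons share the 8 Ctrl arrays. The difference between 18mg and 0mg was -0.14 (95% interval -0.45 to 0.18). At 18mg the value stayed between -0.55 and -0.67 in all fits tried, and it passed in 2 of them: the fit of all 48 arrays (adjusted p = 0.0189) and the one with 1 component of the residual spread as covariate (adjusted p = 0.028). In the other settings, leaving out 1 array included, its adjusted p ran from 0.134 to 0.74. The endothelial markers that ran with Lgals3 between PASMC arrays, as described further on, had a median list mean of 5.88 at Ctrl, 5.64 at 0mg and 5.62 at 18mg, and their part in the Lgals3 difference was not tested.

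In AECII the same extracts left Lgals3 within 0.03 of Ctrl, with 95% intervals of -0.15 to 0.17 at 0mg and -0.13 to 0.19 at 18mg. The difference between the cell types' responses, tested as an interaction, was 0.49 (SE 0.17) at 0mg and 0.64 (SE 0.17) at 18mg, and neither passed (limma adjusted p = 1 and 0.858). No gene passed in either of these comparisons (0% of 14775), with 393 and 382 genes at an unadjusted p under 0.05.

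The remaining members gave treatment differences with intervals around 0 in nearly every case. Lgals1 differed from Ctrl by 0.00 and 0.04 in AECII and by 0.02 and 0.01 in PASMC, with intervals that lay within -0.23 to 0.27. Lgals9 differed by -0.05 and -0.08 in AECII and by -0.05 and -0.22 in PASMC. Lgals8 had a difference of 0.24 in AECII at 0mg (95% interval 0.02 to 0.46, unadjusted p = 0.0312, limma adjusted p = 0.999), with all 8 arrays above the Ctrl mean, and 0.15 at 18mg. Lgals4 differed by 0.48 and 0.44 in PASMC at 0mg and 18mg, with intervals of -0.05 to 1.01 and -0.09 to 0.97, and its other probes gave 0.22 to 0.65. Lgals3bp differed by -0.02 and 0.08 in PASMC, but its wide spread left intervals of -1.04 to 1.00 and -0.94 to 1.10. This fit therefore does not exclude a difference of about 1 log2 unit in either direction. It holds no term for the sets of PASMC arrays that stand apart.

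**Figure D2:**
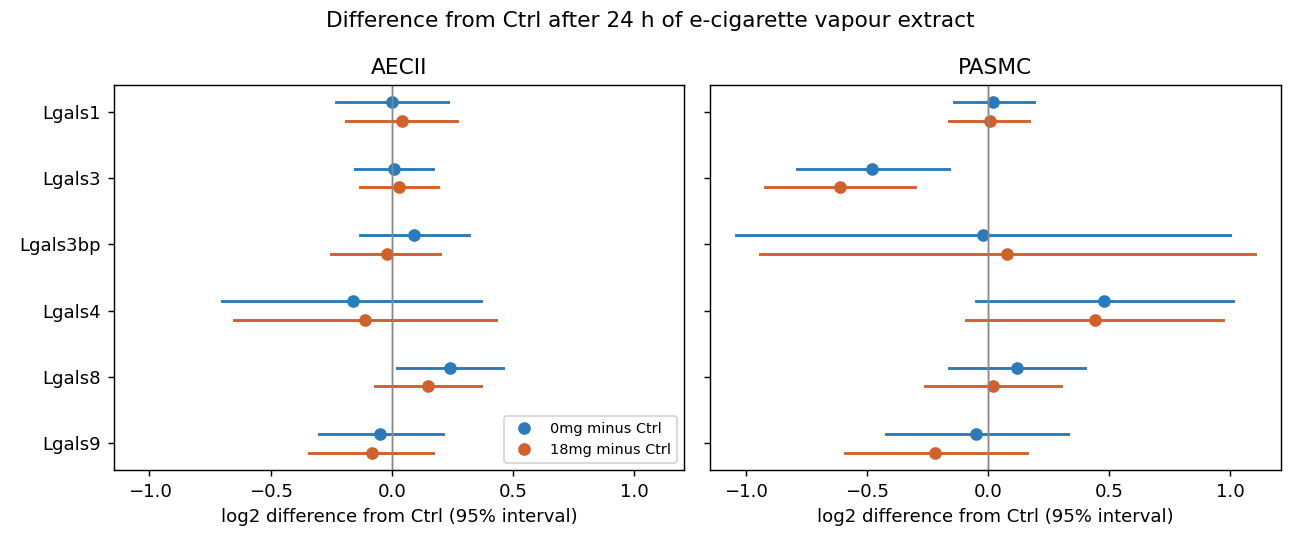
Log2 difference from Ctrl (x axis, point) with its 95% interval (line) for each gene (y axis) in AECII (left) and PASMC (right), for the extract without nicotine (0mg, blue) and with 18 mg per ml (18mg, orange). Lgals3 in PASMC lies at -0.48 and -0.61 with intervals that exclude 0 before adjustment over all genes, and the Lgals3bp intervals in PASMC span about 1 log2 unit on each side.

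Genes that act with galectins gave no call after exposure either. The list of galectin binding partners and receptors had 24 genes, N-glycan branching and galactose capping 23, the response to galectin-marked lysosomes 22 and interferon-stimulated genes 23 with a probe. In AECII and in PASMC, 0 genes of these lists passed at 0mg or at 18mg against Ctrl. The median log2 differences of the 4 lists lay between -0.09 and 0.08 in these comparisons, beside medians over all genes of 0.004 to 0.012. Mgat5, the enzyme that makes the most branched N-glycans, which galectins prefer, had a log2 difference of 0.67 in PASMC at 18mg (SE 0.24, limma adjusted p = 0.973), with means of 2.64 and 3.31 that are both near background. Cd63, a tetraspanin of lysosomes, had -0.23 (SE 0.079, limma adjusted p = 0.889). Calcoco2, the autophagy receptor that binds galectin-8 on damaged membranes, had 0.70 (SE 0.26, limma adjusted p = 1), also near background with means of 2.35 and 3.05.

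Between the cell types these lists split in both directions, and their counts at Ctrl are read beside the 27.9% of all genes that were higher and 31.3% that were lower in AECII. Of 24 binding partners tested at Ctrl, 4 were higher and 13 lower in AECII, with a median difference of -0.31 beside -0.044 over all genes. Muc1, the epithelial mucin that galectin-3 binds, was higher by 4.29 (SE 0.31, limma adjusted p = 1.63e-16, with a PASMC mean of 2.93 near background) and the tetraspanin Cd9 by 1.65 (SE 0.13). Ncam1, an adhesion molecule, was lower, with a log2 difference of -2.48 (SE 0.16, limma adjusted p = 1.12e-17), as was the receptor Egfr with -2.05 (SE 0.14). Of 20 glycan genes tested, 9 were higher and 7 lower, with a median of 0.17. St3gal6, a sialyltransferase that caps galactose, was higher by 4.71 (SE 0.29, limma adjusted p = 8.29e-19) over a PASMC mean of 2.73 near background, and St6gal1, whose cap is known to block binding of galectins, by 1.98 (SE 0.17). St3gal3 and the galactosyltransferase B4galt2 were lower, with -1.89 (SE 0.099) and -1.99 (SE 0.16). Of 21 genes of the lysosome list, 6 were higher, among them Trim16, which works with galectin-3, by 2.18 (SE 0.24), and 9 lower, among them the kinase Lrrk2 with -2.62 (SE 0.20). Of 23 interferon-stimulated genes, 5 were higher, among them the antiviral GTPase Mx1 by 4.40 (SE 0.21) over a PASMC mean of 2.18 near background, and 10 lower, with a median of -0.58. Among the lower ones was the nucleic acid sensor Zbp1 with -4.75 (SE 0.56), whose AECII mean of 2.86 is near background.

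Lgals3bp in PASMC varied between arrays together with interferon-stimulated genes. On the arrays low in Lgals3bp (8.50, 8.52 and 8.93) the mean of 23 interferon-stimulated genes was 4.81, 4.76 and 4.99, and on those highest (12.17 and 12.10) it was 7.87 and 7.32. Because the PASMC arrays fall apart in epithelial markers, correlations are given within the larger set of 15 arrays, with group means removed and p-values from permutations within groups, adjusted over 93 pairs. There Lgals3bp and the interferon list had Pearson's r = 0.94 and Spearman's rho = 0.96 (permutation p = 1e-05 each, the smallest that 100000 resamples can give, adjusted p = 0.00093). Over the 9 arrays high in epithelial markers r was 0.99, and over the 21 without the 3 arrays low in Lgals3bp it was 0.97. Within single conditions of 8 arrays r was 0.98 to 0.99 (exact permutation p of 2.48e-05 to 0.000273). Without the 2 of the 15 arrays farthest in the interferon mean r was 0.93. The 3 sets of arrays were chosen after the data were seen. Each set holds equal numbers of arrays from the 3 conditions, 5 each among the 15, and the arrays lowest in Lgals3bp are 1 of each condition. If arrays of different conditions came from 1 animal, p-values over the 15 arrays would be too small, and the values within single conditions do not pool such arrays. Each condition does join 5 arrays low and 3 high in epithelial markers, 1 of them low in Lgals3bp. The values within conditions therefore include the gap between the sets.

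Single interferon-stimulated genes are described over all 24 PASMC arrays, which span the sets that stand apart. Of 22 tested, 19 had r above 0.5 with Lgals3bp, with a median r of 0.92. The share of all genes above that r is not given here, so the count is a description only. Large r with Lgals3bp was not limited to interferon-stimulated genes. Within conditions of 8 PASMC arrays it was -0.95 to -0.82 for general epithelial and 0.85 to 0.90 for fibroblast markers. Isg15, a ubiquitin-like modifier, ranged from 7.39 to 12.20 over the arrays with r = 0.97, and Bst2, the tetherin that holds virus at the cell surface, from 8.82 to 11.32 with r = 0.97. Cxcl10, a chemokine, and Ifit2 had r of 0.21 and 0.11. In AECII, 1 of 21 such genes had r above 0.5 with Lgals3bp, and the median r was 0.27. Lgals3 had r = 0.52 with the interferon list in AECII (rho = 0.53, permutation p = 0.00497 and 0.0107, adjusted p = 0.0201, and 0.56 without the farthest 2 arrays). The interferon list itself averaged 4.76 to 7.87 over the PASMC arrays and 5.55 to 6.33 over the AECII arrays. In PASMC it ran from 4.76 to 6.87 at Ctrl, from 4.81 to 7.87 at 0mg and from 4.99 to 7.32 at 18mg.

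**Figure D3:**
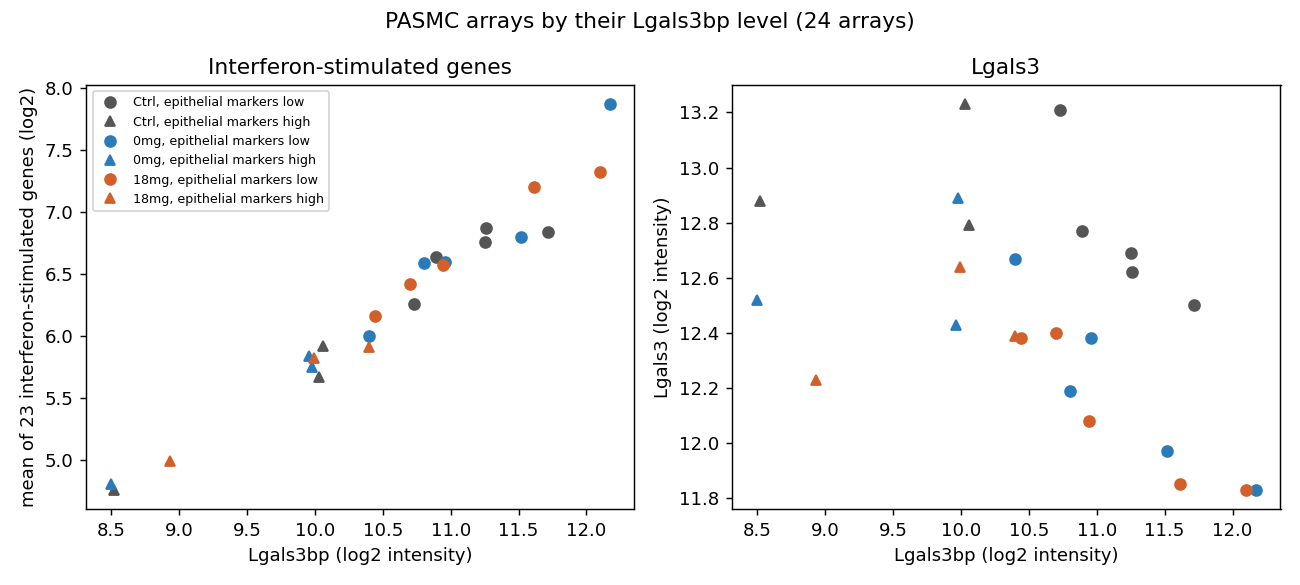
Log2 intensity of Lgals3bp (x axis) on the 24 PASMC arrays against the mean log2 value of 23 interferon-stimulated genes (left, y axis) and against Lgals3 (right, y axis), 1 point per array, with colour for the condition and triangles for the 9 arrays high in epithelial markers. The interferon mean climbs from 4.76 to 7.87 with Lgals3bp, arrays of each condition lie at both ends, and Lgals3 lies lowest (11.83) on the arrays highest in Lgals3bp.

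Within PASMC, Lgals9 shared this pattern and Lgals3 ran against it, a sign opposite to that of Lgals3 in AECII; the difference between the cell types was not tested. Over the same 15 PASMC arrays, Lgals9 had r = 0.86 (rho = 0.81, permutation p = 9e-05 and 0.00053, adjusted p = 0.00167) and Lgals3 r = -0.88 (rho = -0.95, permutation p = 2e-05 each, adjusted p = 0.00093) with the interferon list. Lgals3 and Lgals3bp had r = -0.90 with each other (rho = -0.96, permutation p = 0.00013 and 3e-05, adjusted p = 0.00201), and Lgals3 and Lgals9 r = -0.86 (rho = -0.83, permutation p = 0.00023 and 0.0004, adjusted p = 0.00306). Lgals3bp and Lgals9 had r = 0.81 (rho = 0.76, permutation p = 0.00089 and 0.00181, adjusted p = 0.00828). Without the 2 arrays farthest on the x measure these 5 values of r were 0.78, -0.89, -0.90, -0.76 and 0.72, in the order given. In the 9 arrays high in epithelial markers r was 0.34 for Lgals3 and -0.45 for Lgals9 with the interferon list, and 0.40 for Lgals3 with Lgals3bp. With 3 arrays per condition that set is too small to test pairs after adjustment, and its r is given as a description. Within conditions of 8 arrays the r of Lgals3 with Lgals3bp was -0.72 to -0.47 (exact permutation p of 0.0422 to 0.233).

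Some markers of other cells moved along the same axis in the 15 PASMC arrays low in epithelial markers. Over the 15 arrays, endothelial markers had r = -0.88 with Lgals3bp (rho = -0.87, permutation p = 7e-05 and 0.00017, adjusted p = 0.00163) and 0.85 with Lgals3 (rho = 0.83, permutation p = 0.00049 and 0.00085, adjusted p = 0.0057), and -0.78 and 0.78 without the farthest 2 arrays. That list of 9 genes averaged 4.4 to 7.86 over all PASMC arrays and 4.4 to 6.0 over the 15. Over the 9 arrays high in epithelial markers it averaged 5.91 to 7.86. On the 3 of them lowest in Lgals3bp it was 6.0 to 6.08, so the arrays lowest in Lgals3bp were not the highest in this list. In each PASMC condition 7 of its genes were above background. Egfl7 was the highest at means of 9.36 to 9.49, while Pecam1, a defining endothelial gene, was near background at 3.22 to 3.52. General epithelial markers had r = -0.74 with Lgals3bp (rho = -0.67, permutation p = 0.00145 and 0.0111, adjusted p = 0.012) and 0.85 with Lgals1 (rho = 0.81, permutation p = 0.00078 and 0.00206, adjusted p = 0.00806), and -0.64 and 0.61 without the farthest 2. The mean of these 12 genes was only 3.37 to 4.10 over the 15 arrays, with a median of 3.90, around the near-background limit of 3.98. Over the 24 arrays it was 3.37 to 6.93. Fibroblast markers had r = 0.61 with Lgals3bp (rho = 0.43, permutation p = 0.0168 and 0.128, adjusted p = 0.0681) and did not pass within the 15 arrays. Alveolar macrophage markers had r = 0.01 with Lgals3 and -0.23 with Lgals3bp there. The part of these cells in the results was not tested.

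In PASMC galectin binding partners as a group ran with Lgals1 and Lgals3. Over the 15 arrays their mean had r = 0.84 with Lgals1 (rho = 0.71, permutation p = 0.00155 and 0.0106, adjusted p = 0.012), 0.75 with Lgals3 (rho = 0.77, permutation p = 0.00294 and 0.00132, adjusted p = 0.021) and -0.81 with Lgals3bp (rho = -0.81, permutation p = 6e-05 and 0.00031, adjusted p = 0.00163). Without the farthest 2 arrays these were 0.56, 0.69 and -0.71. Over the 9 arrays high in epithelial markers the r with Lgals3bp had the opposite sign, 0.87, also a description of a set too small to test. In AECII the list had r = 0.16 with Lgals3, which did not pass, and 0.67 with Lgals3bp (rho = 0.71, permutation p = 0.00111 and 0.00039, adjusted p = 0.0059), opposite in sign to the PASMC value. Lgals1 and Lgals3bp had r = -0.67 over the 15 arrays (rho = -0.60, permutation p = 0.00329 and 0.0246, adjusted p = 0.0219, and -0.64 without the farthest 2). Lgals8 passed with none of the lists or members there, and Lgals4 only with alveolar type I markers, at r = -0.65 (rho = -0.76, permutation p = 0.00839 and 0.00633, adjusted p = 0.0446, and -0.65 without the farthest 2).

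In AECII the members followed different markers. Over 24 arrays, Lgals3 had r = 0.75 with alveolar type II markers (rho = 0.72, permutation p = 9e-05 and 0.00039, adjusted p = 0.000881 over 186 pairs) and 0.64 without the 2 arrays farthest in those markers. It had r = 0.67 with alveolar type I markers (rho = 0.62, permutation p = 0.00059 and 0.00311, adjusted p = 0.00354) and 0.55 without the farthest 2, which no longer passed (adjusted p = 0.0502). With alveolar macrophage markers, a cell type that also carries galectin-3, its r was 0.14. Within conditions the r of Lgals3 with the type II list was 0.65 to 0.88 (exact permutation p of 0.00645 to 0.0806). The type II list averaged 8.79 to 9.40 over the AECII arrays.

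Lgals1 in AECII ran with mesothelial markers and against general epithelial ones, while its r was -0.17 with alveolar type II, -0.14 with alveolar type I and 0.06 with smooth muscle markers, none of which passed. Its r was 0.71 with mesothelial markers (rho = 0.73, permutation p = 0.00033 and 0.00029, adjusted p = 0.00212, and 0.77 without the farthest 2 arrays). It was -0.73 with general epithelial markers (rho = -0.77, permutation p = 0.00012 and 4e-05, adjusted p = 0.00101, and -0.75 without the farthest 2). With fibroblast markers it was 0.61 (rho = 0.56, permutation p = 0.00251 and 0.00734, adjusted p = 0.0112), falling to 0.55 without the farthest 2 arrays, which no longer passed (adjusted p = 0.0502). Within conditions of 8 arrays, Lgals1 also ran against airway and gut-type secretory markers, with r of -0.94 to -0.69 (exact permutation p of 0.000322 to 0.0722). With general epithelial markers its r within conditions was -0.80 to -0.68. Lgals3bp had r = 0.76 with endothelial markers (rho = 0.77, permutation p = 3e-05 and 5e-05, adjusted p = 0.000399, and 0.64 without the farthest 2), a list that averaged 4.80 to 6.06 in AECII. The AECII correlations of Lgals3bp rest on its chosen probe, with which the second had r = 0.62 in AECII. Lgals3 and Lgals8 had r = 0.66 (rho = 0.67, permutation p = 0.00098 and 0.00114, adjusted p = 0.00536, and 0.67 without the farthest 2). In all, 16 of 93 pairs passed in AECII. The share of these marker cells in the correlations was not tested.

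**Figure D4:**
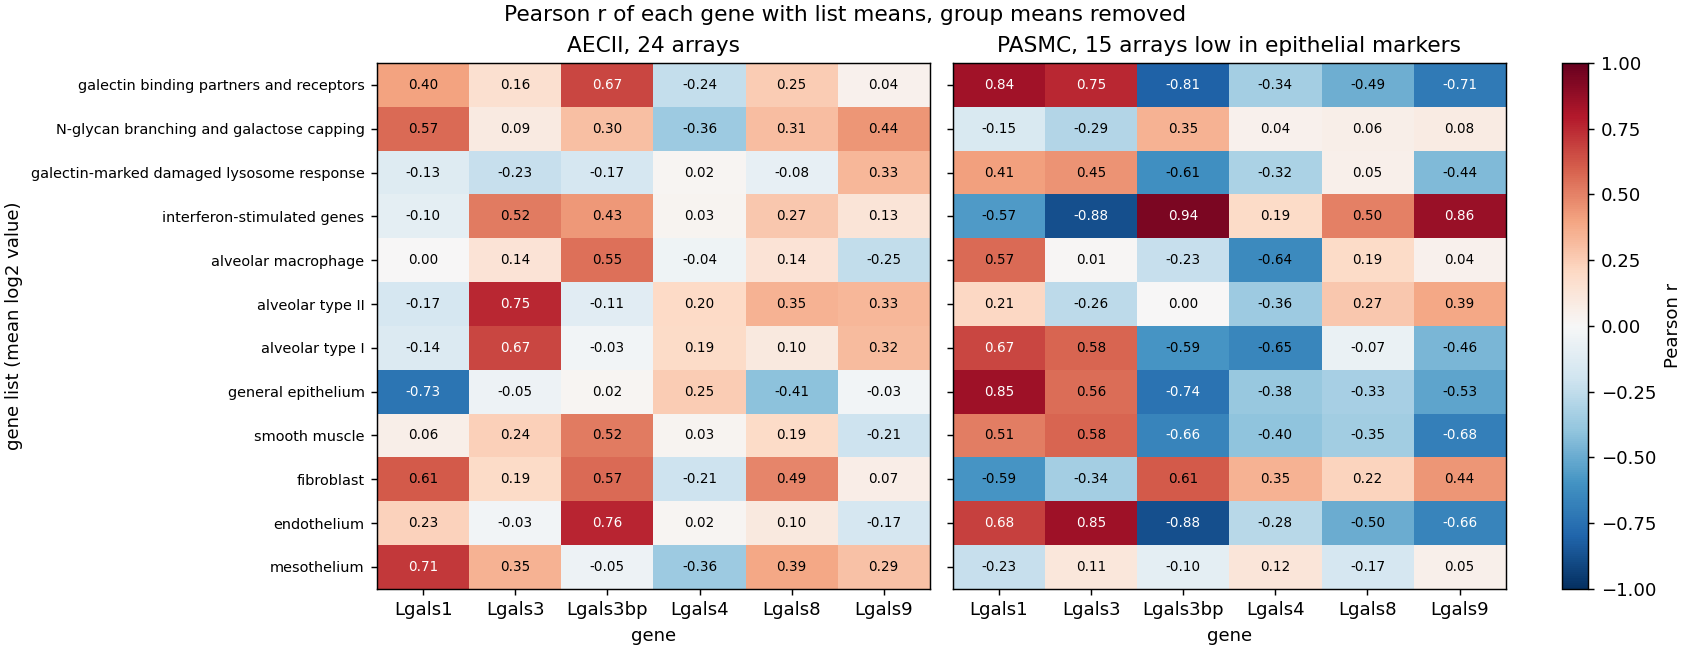
Pearson's r (colour and printed value) of each gene (x axis) with the means of gene lists (y axis), group means removed, over 24 AECII arrays (left) and the 15 PASMC arrays low in epithelial markers (right). The list of airway and gut-type secretory epithelium is not shown. Lgals3bp with interferon-stimulated genes (0.94) and endothelial markers (-0.88) in PASMC and Lgals3 with alveolar type II markers (0.75) in AECII are among the values of largest size.

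The genes most like each member across arrays, by Pearson's r over the 24 arrays of a cell type with group means removed, differed between the cell types. In PASMC, Lgals3bp had the highest r with Serpina3g, P3h3 and Serping1 (0.98 each), of which Serping1 is the C1 inhibitor of complement. Lgals3 had it with Arap3 (0.90), Plekho1 (0.88) and Postn, the matrix protein periostin (0.88), and Lgals1 with Rnf128 (0.93), Tmem37 (0.92) and Itgb1, the integrin beta 1 chain (0.92). Lgals9 had Clec11a (0.85), Akt2 (0.82) and Dtl (0.81). In AECII, Lgals3 had Mlc1 (0.86), the class II antigen gene H2-Eb1 (0.85) and Col4a2, a basement membrane collagen (0.84), and Lgals1 had Sh3bp5 (0.92), Ifitm2 (0.90) and Zcchc24 (0.89). For Lgals3bp, Lgals8 and Lgals9 in AECII the highest r was 0.79, 0.74 and 0.78. These are descriptions over 14476 other genes in AECII and 14544 in PASMC, and the PASMC values span arrays that stand apart.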

How the data were processed

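RNA of 48 cultures was hybridised to single-colour Agilent arrays of 62976 features, 8 per group. The deposited values are log2 intensities with equal distributions, made by the authors, and limma is the tool that the submitters' processing notes list, with no version; the scanner data were not used here. Features were named through the platform annotation and their RefSeq or gene identifiers: 31465 features had 1 symbol, none had several and 31511 had none. Per cell type, and over both for the cell type comparisons, limma 3.58.1 (lmFit, eBayes, R 4.3.3) was fitted with 1 coefficient per group to genes whose mean passed the 30th percentile of named features (2.73), and p-values were Benjamini-Hochberg adjusted over 14477 (AECII), 14545 (PASMC) or 14775 (both) genes, with 0.05 as threshold. A log2 difference is a difference of group means. The number of arrays limits the precision. Fits and correlations were tested on simulated data.

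Named genes were the 6 members, the other family genes with a probe, up to 4 genes per related list and comparison by smallest p (2 where none passed), and the 3 genes of highest r per member. The members and lists were chosen with earlier results of these data known. Alternatives covered a block for replicate number or for runs of 8 accessions, the filter (none, 50th percentile), median centring, renewed quantile normalization, probe means, trended robust eBayes, array weights, the arrays fitted, and each array left out.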

Additional observations from a re-analysis of the deposited data

Results flagged for a closer look

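The lowest Lgals8 value of the AECII 18mg group, 7.27 in replicate 7, lay far from the other 7 arrays of the group, whose values ran from 7.71 to 8.03. The gap to its neighbour, as a share of the group's range, was above Dixon's 95% critical value for 8 values. Among 66 combinations of 11 family genes and 6 groups, 1 other passed the limit, Lgals12 in PASMC 0mg, a gene near background in every group, where replicate 7 had 3.50 and the next array 2.43. Chance alone passes this limit in about 1 of 20 groups.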

How the results depend on the processing

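The 4 genes lower in PASMC at 18mg became 0 with the replicate block, 0 with runs of 8 accessions as a block, 0 with only the arrays compared, 1 with no filter, 1 with the mean of all probes, 8 with the 50th percentile filter, 13 with array weights and 22 with 1 residual component as covariate. They became 7 without the 3 PASMC arrays low in Lgals3bp and 1 without the 9 high in epithelial markers. Leaving out 1 array gave 1 to 6, and 1 in 19 of 24 cases. In PASMC at 0mg, 1 gene passed with array weights, 1 without the 3 arrays and 1 without PASMC Ctrl replicate 2, against 0. For the response difference at 18mg, 1 gene passed with array weights, 1 without the 3 arrays and 1 without the 9. Members called in PASMC at 18mg went from 0 to 1, Lgals3, with 1 residual component and with all 48 arrays. The cause was not tested, apart from the settings' own construction. The settings chosen after seeing the data were the residual component, the arrays left out as sets, the correlations with gene lists that are not cell markers (48 of 186) and the correlations within sets.

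Replicate numbers did not pair arrays: 5 of 24 arrays per cell type correlated best with an array of their own number. With this block, 2 correlation calls were lost and 25 gained of 186. No member changed direction while called, and of 838 member values in settings other than leaving out 1 array, 831 kept their call, 6 gained and 1 lost it. Probes near background, such as those of Lgals4 in AECII, limit what can be measured. Deposited values carry no detection flag used here.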
